A study of Mus musculus with 12 samples.

Results

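The 8 genes described here, Egln3, P4ha1, Ero1l, Vegfa, Bnip3, Higd1a, Pdk1 and Ndrg1, are known targets of the hypoxia-inducible factors (HIF). They were chosen as a named list of 11 Affymetrix probe sets among the 45101 of the array, with 2 probe sets each for Ero1l, Pdk1 and Ndrg1, and the pairing of probe sets with genes comes from that list. All 11 were among the 18271 probe sets tested, those with a log2 value of 5 or more on 3 or more arrays. Egln3 and Vegfa reached it on no Treg array and passed only through effector arrays. Ndrg1 1423413_AT, below it on all 3 transgenic and 2 of the 3 C57BL/6 Treg arrays, also needed effector arrays to pass.

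The study measured spleen T cells on 12 arrays, 3 in each of 4 groups. Transgenic Treg cells and C57BL/6 Treg cells were sorted as CD4+ CD25hi cells from fresh spleen. Transgenic effector cells and C57BL/6 effector cells were sorted by the same markers after whole spleen cells had been cultured for 48 hours with anti-CD3, an antibody that stimulates the T cell receptor. The transgenic mice, labelled C57BL/6-2Rbeta-WT/thymus, were bred to mice lacking the IL-2 receptor beta chain, and the study calls their T cells IL-2R defective. The controls are labelled normal C57BL/6. The transgene's name points to receptor expression in the thymus, and the sources used here do not name its promoter. Each Treg array held a pool of 3 to 15 mice and each effector array 1 mouse. Ages were 7 to 33 weeks for transgenic Treg, 10 to 12 weeks for C57BL/6 Treg, 9 to 15 weeks for transgenic effector and 10 to 14 weeks for C57BL/6 effector samples, and the 33-week pool was transgenic Treg array 1. Purity after sorting was 99.0% to 99.9% where given, and it counts CD4+ CD25+ cells, so activated Treg cells among the effector cells were not counted apart. CD25, itself a chain of the IL-2 receptor, was part of both gates. Probe sets outside the list carry no gene names in the sources used here, so markers of the populations and of other cell types were not analysed here.

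HIF is a transcription factor of an oxygen-regulated alpha subunit and a constant beta subunit. In oxygenated cells, prolyl hydroxylases mark the alpha subunit for destruction through the von Hippel-Lindau protein, and low oxygen spares it. In T cells, antigen receptor signalling and mTOR also raise HIF-1 alpha, and its targets move metabolism away from mitochondrial pyruvate oxidation towards glycolysis.

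The short DNA core that HIF binds is ACGTG or GCGTG. The 250 bases upstream of the transcription start were searched on both strands for either sequence. RefSeq promoter windows (GRCm38.p6) were matched by symbol for 7 of the 8 genes, with Ero1l under its current symbol Ero1a, and Vegfa and Pdk1 had 2 windows each. All 7 genes had a match in at least 1 window, but the first Vegfa and second Pdk1 windows had none. Counted by window and not by gene, 38.6% of all 32851 windows in the table had a match. Genes with 2 windows had more chances of a match. At least 3 separate matches were found for Bnip3, P4ha1 and Ero1a, as in 4.68% of all windows. The windows shown are those of 3 genes called between the populations in both strains and of Pdk1, the gene called between the strains. Egln3, with 1 match, and Vegfa were also called in both strains, and their windows are not shown. Ndrg1 was called in both strains too and has no window. Capitals mark the core on either strand, so CACGT and CACGC are its reverse complements.
Bnip3: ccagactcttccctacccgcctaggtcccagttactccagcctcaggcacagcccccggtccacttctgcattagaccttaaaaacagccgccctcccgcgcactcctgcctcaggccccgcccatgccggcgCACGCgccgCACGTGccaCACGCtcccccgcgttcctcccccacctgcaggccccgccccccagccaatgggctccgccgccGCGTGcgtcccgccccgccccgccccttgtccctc
Ero1a: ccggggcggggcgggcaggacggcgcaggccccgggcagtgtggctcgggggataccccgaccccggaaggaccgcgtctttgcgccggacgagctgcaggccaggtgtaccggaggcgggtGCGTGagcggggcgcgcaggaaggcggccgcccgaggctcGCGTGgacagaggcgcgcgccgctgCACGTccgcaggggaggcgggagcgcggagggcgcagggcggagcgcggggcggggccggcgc
Higd1a: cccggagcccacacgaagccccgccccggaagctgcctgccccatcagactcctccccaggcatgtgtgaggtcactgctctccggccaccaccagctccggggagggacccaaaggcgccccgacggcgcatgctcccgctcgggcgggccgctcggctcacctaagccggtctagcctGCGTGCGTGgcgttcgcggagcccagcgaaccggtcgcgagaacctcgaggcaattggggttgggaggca
Pdk1: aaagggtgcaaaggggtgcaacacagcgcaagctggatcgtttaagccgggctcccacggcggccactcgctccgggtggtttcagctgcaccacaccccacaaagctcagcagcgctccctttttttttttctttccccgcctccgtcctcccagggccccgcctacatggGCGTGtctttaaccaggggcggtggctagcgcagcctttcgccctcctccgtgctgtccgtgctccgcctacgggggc
The Bnip3 window lies on the minus strand of chr7:138909507-138909756, that of Ero1a on the minus strand of chr14:45318573-45318822, that of Higd1a on the minus strand of chr9:121857797-121858046, and that of Pdk1 on the plus strand of chr2:71872974-71873223. In Bnip3, ACGTG on both strands shares the letters of CACGTG, which is also an E-box, a site of other transcription factors. In Higd1a, 2 copies of GCGTG overlap by 1 base. The upstream Vegfa window held no match, and the Vegfa window farther into the gene held 2. A match describes these letters only and is not evidence of binding.

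**Figure D1:**
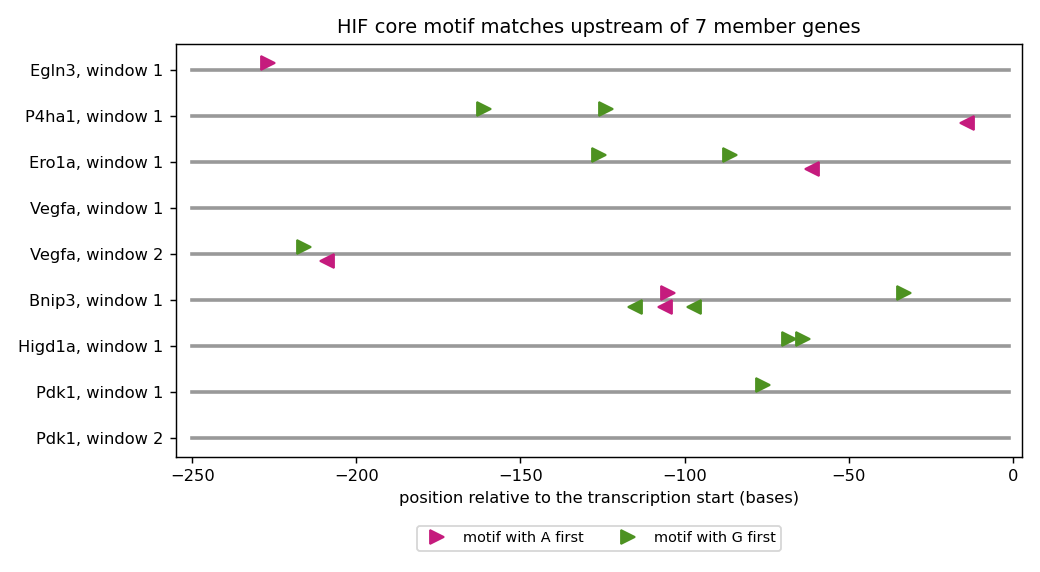
Position of each core match in the 250 bases before the transcription start of the 7 genes with a RefSeq window, with right-pointing triangles for the plus strand of the gene and left-pointing ones for its minus strand. Bnip3 has 5 matches, Egln3 has 1 near the far end, and the first Vegfa and second Pdk1 windows have none.

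The deposited values are log2 GCRMA values, in which background has been modelled and arrays normalized, and levels of different probe sets are not comparable. Tests are from limma across all tested probe sets, and a difference with a Benjamini-Hochberg adjusted p under 0.05 is called. One array needs naming before the results. The purification label of transgenic effector array 3 speaks of freshly taken spleen cells, but the title and source name anti-CD3 culture. All 11 probe sets were lowest on that array among the 3 of its group, where 39.6% of all tested probe sets were, and their median deviation from the group mean was -0.82, against 0.00377 over all tested probe sets. Most differences that involve transgenic effector cells are therefore also given without it. Spread and correlations within groups are given only with it. Leaving it out must raise the transgenic effector mean of every member, so the direction of such shifts is fixed and is not a result. Minimum values were 0.942 to 0.957 on Treg arrays and 0.296 to 0.325 on effector arrays, so the populations may differ in scale.

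The largest differences lay between fresh Treg and activated effector cells. In transgenic mice 8 of the 11 probe sets, from 6 of the 8 genes, were lower in Treg cells and none was higher. In C57BL/6 mice 10 of 11, from 7 genes, were lower and none higher. Among all tested probe sets 40% were lower and 30% higher in transgenic Treg cells (70% called in all), and 42% were lower and 31.7% higher in C57BL/6 Treg cells (73.8% called in all). The populations did not overlap for 8 of the 11 in transgenic mice, against 73.9% of all tested probe sets, and for 10 of the 11 in C57BL/6 mice, against 76.7%. The median difference of the 11, Treg minus effector, was -3.54 in transgenic and -3.49 in C57BL/6 mice, against -0.21 and -0.26 over all tested probe sets. Without transgenic effector array 3, 8 of the 11 were again lower in transgenic mice and their median was -3.84. For Egln3 and Vegfa the filter itself fixed this direction, so the count and the median are descriptions. The 2 comparisons use different arrays, and both share arrays with the strain comparisons that follow. The 48-hour culture, the anti-CD3 stimulus, the pooling of mice and the cell type all differ between the populations and cannot be told apart here. Nor can fewer expressing cells be told apart from less RNA per cell.

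**Figure D2:**
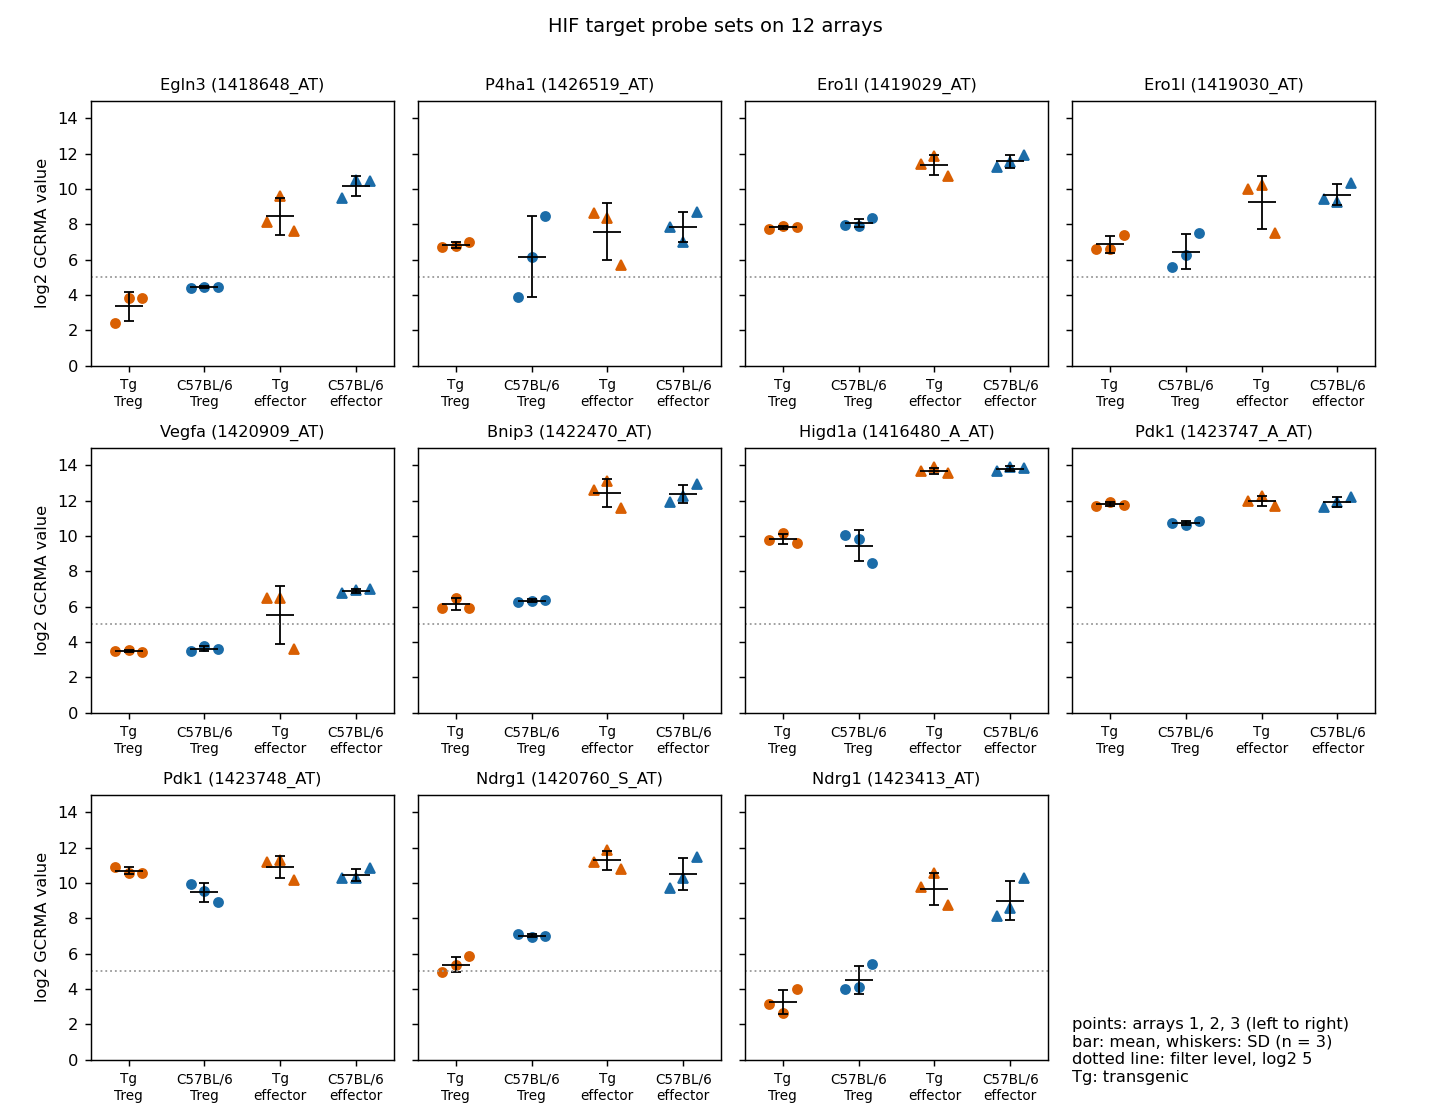
Log2 GCRMA value of each of the 11 probe sets on every array, with group mean and SD (n = 3) and the filter level of log2 5 as a dotted line. Bnip3 and Higd1a lie far apart between Treg and effector cells, Egln3 and Vegfa lie under the dotted line on all 6 Treg arrays, and Pdk1 is close between the populations in transgenic mice.

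Egln3 encodes a HIF prolyl hydroxylase and is itself induced by HIF, which makes it a feedback inhibitor. Its values (1418648_AT) were 2.42, 3.86 and 3.81 in transgenic Treg cells and 4.42, 4.48 and 4.47 in C57BL/6 Treg cells. In effector cells they were 8.12, 9.62 and 7.64 in transgenic and 9.50, 10.53 and 10.47 in C57BL/6 mice. Every Treg array lay below every effector array. The difference, Treg minus effector, was -5.09 in transgenic and -5.71 in C57BL/6 mice (SE 0.51 each, limma adjusted p = 4.34e-06 and 1.52e-06). Since the filter fixed the direction for this probe set, these p-values are descriptions. The transgenic difference was -5.50 without transgenic effector array 3. With values below log2 5 set to 5 the differences were -3.46 in transgenic and -5.17 in C57BL/6 mice, so their size depends on how low signals are handled.

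Ero1l encodes an oxidase of the endoplasmic reticulum that drives disulfide bond formation in secreted proteins. Probe set 1419029_AT averaged 7.83 ± 0.09 in transgenic Treg and 8.08 ± 0.23 in C57BL/6 Treg cells, and 11.36 ± 0.57 in transgenic and 11.57 ± 0.36 in C57BL/6 effector cells (SD, n = 3). The difference, Treg minus effector, was -3.54 in transgenic and -3.49 in C57BL/6 mice, or about 11.6-fold and 11.2-fold (limma adjusted p = 4.41e-07 and 4.46e-07). The second Ero1l probe set, 1419030_AT, differed by -2.37 in transgenic and -3.23 in C57BL/6 mice (limma adjusted p = 0.00898 and 0.00121). Both probe sets gave non-overlapping populations in each strain. In transgenic mice they differed by -3.84 on 1419029_AT and -3.25 on 1419030_AT without transgenic effector array 3.

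P4ha1 encodes the catalytic subunit of the collagen prolyl hydroxylase. Probe set 1426519_AT read 6.70, 6.80 and 7.02 in transgenic Treg cells and 3.90, 6.14 and 8.46 in C57BL/6 Treg cells. It read 8.64, 8.38 and 5.72 in transgenic and 7.84, 7.02 and 8.69 in C57BL/6 effector cells. The populations overlapped in both strains and neither difference was called (-0.74 in transgenic and -1.68 in C57BL/6 mice, limma adjusted p = 0.537 and 0.156). Its within-group SD of 1.46 exceeded that of 99.8% of tested probe sets. Without C57BL/6 Treg array 3, which had the highest of its Treg values, the C57BL/6 difference was -2.83 and was called (limma adjusted p = 0.0138). Without transgenic effector array 3 the transgenic difference was -1.67 (limma adjusted p = 0.160). With array weights both were called, at -1.42 in transgenic and -1.72 in C57BL/6 mice (limma adjusted p = 0.0491 and 0.00331). In that setting 77.3% of all tested probe sets were called in transgenic and 85.6% in C57BL/6 mice. Its weights were 5.02 for C57BL/6 Treg array 2 and 3.93 for C57BL/6 effector array 1, against 0.229 to 1.96 on the other arrays. The weighted C57BL/6 means therefore rest largely on 1 array in each population.

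Vegfa encodes a secreted growth factor for blood vessels. Its probe set, 1420909_AT, read 3.46 to 3.57 in transgenic Treg cells and 3.48 to 3.78 in C57BL/6 Treg cells. In effector cells it read 6.50, 6.48 and 3.62 in transgenic mice and 6.79, 6.97 and 7.00 in C57BL/6 mice. The value of 3.62, within the range of the C57BL/6 Treg arrays, is that of transgenic effector array 3. The difference, Treg minus effector, was -2.03 in transgenic and -3.29 in C57BL/6 mice (limma adjusted p = 0.00932 and 0.000365), and -2.99 in transgenic mice without that array. All Treg values lay below log2 5. With such values set to 5 the differences were -0.99 in transgenic and -1.92 in C57BL/6 mice, both still called. The filter fixed the direction here too, so these p-values and calls are descriptions.

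Bnip3, a receptor that marks mitochondria for autophagy, had the largest population difference of the 11 in C57BL/6 mice. Its probe set, 1422470_AT, read 5.95, 6.52 and 5.93 in transgenic Treg cells and 6.26, 6.35 and 6.41 in C57BL/6 Treg cells. It read 12.62, 13.13 and 11.59 in transgenic and 11.95, 12.25 and 12.94 in C57BL/6 effector cells. The difference, Treg minus effector, was -6.31 ± 0.36 in transgenic and -6.04 ± 0.36 in C57BL/6 mice (log2 and SE, limma adjusted p = 4.63e-08 and 6.07e-08), or 79.4-fold and 65.9-fold. Leaving out transgenic effector array 3 gave -6.74 in transgenic mice. In C57BL/6 mice 0.274% of tested probe sets had a lower value of this difference.

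Higd1a, a small inner-membrane protein that associates with the respiratory chain, followed the same direction. Probe set 1416480_A_AT averaged 9.85 ± 0.28 in transgenic Treg and 9.46 ± 0.87 in C57BL/6 Treg cells, and 13.71 ± 0.17 in transgenic and 13.82 ± 0.12 in C57BL/6 effector cells (SD, n = 3). The difference was -3.86 in transgenic and -4.36 in C57BL/6 mice (limma adjusted p = 1.26e-06 and 4.25e-07). In transgenic mice it was -3.93 without transgenic effector array 3. Its effector values spanned 13.56 to 13.93 over both strains.

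Pdk1, a kinase that switches off pyruvate dehydrogenase and so keeps pyruvate out of the mitochondrial cycle, was lower in Treg cells in C57BL/6 mice and was not called between the populations in transgenic mice. Probe set 1423747_A_AT read 11.71, 11.92 and 11.77 in transgenic Treg cells and 10.75, 10.62 and 10.85 in C57BL/6 Treg cells. It read 11.98, 12.29 and 11.69 in transgenic and 11.66, 11.92 and 12.24 in C57BL/6 effector cells. Transgenic Treg cells overlapped the effector cells, while C57BL/6 Treg cells lay below them.

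In transgenic mice the difference, Treg minus effector, was -0.19 for 1423747_A_AT and for the second Pdk1 probe set, 1423748_AT, with 95% intervals of -0.58 to 0.20 and -0.92 to 0.53 (limma adjusted p = 0.367 and 0.622), and it turned positive with arrays centred on their median (0.11 for both) or quantile normalized (0.48 and 0.45, the first called with a limma adjusted p = 0.0312). The values were -0.34 and -0.55 without transgenic effector array 3 (limma adjusted p = 0.109 and 0.108). With array weights 1423748_AT was called lower in transgenic Treg cells, at -0.54 (limma adjusted p = 0.0362). In C57BL/6 mice it was -1.20 for 1423747_A_AT and -1.0 for 1423748_AT (limma adjusted p = 8.38e-05 and 0.0164). Of all tested probe sets, 27.2% and 31.6% had lower values of this difference. On 1423747_A_AT it shrank to -0.88 with centred arrays and -0.47 with quantile normalization, both still called (limma adjusted p = 0.000626 and 0.0322). The C57BL/6 call of 1423748_AT was lost with centred arrays (limma adjusted p = 0.0748), with quantile normalization (limma adjusted p = 0.285), and without C57BL/6 effector array 3 or C57BL/6 Treg array 3 (limma adjusted p = 0.0675 and 0.0673).

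Ndrg1 encodes a cytosolic protein that accumulates under hypoxia and other stress. Probe set 1420760_S_AT read 4.97, 5.34 and 5.86 in transgenic Treg cells and 7.13, 6.94 and 7.00 in C57BL/6 Treg cells. It read 11.19, 11.87 and 10.81 in transgenic and 9.74, 10.30 and 11.49 in C57BL/6 effector cells. The difference, Treg minus effector, was -5.90 in transgenic and -3.49 in C57BL/6 mice (SE 0.41 each, limma adjusted p = 2.11e-07 and 1.31e-05). The second Ndrg1 probe set, 1423413_AT, differed by -6.43 in transgenic and -4.50 in C57BL/6 mice, with 5 of its 6 Treg values below log2 5. With such values set to 5 it differed by -4.69 in transgenic and -3.87 in C57BL/6 mice. Probe set 1423413_AT needed effector arrays to pass the filter, so the filter favoured this direction. Without transgenic effector array 3 the transgenic differences were -6.14 on 1420760_S_AT and -6.90 on 1423413_AT. The suffix of 1420760_S_AT marks a design in which probes may match more than 1 gene, but its values and those of 1423413_AT correlated at 0.986 over the 12 arrays, which share the population difference, and at 0.819 within groups.

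**Figure D3:**
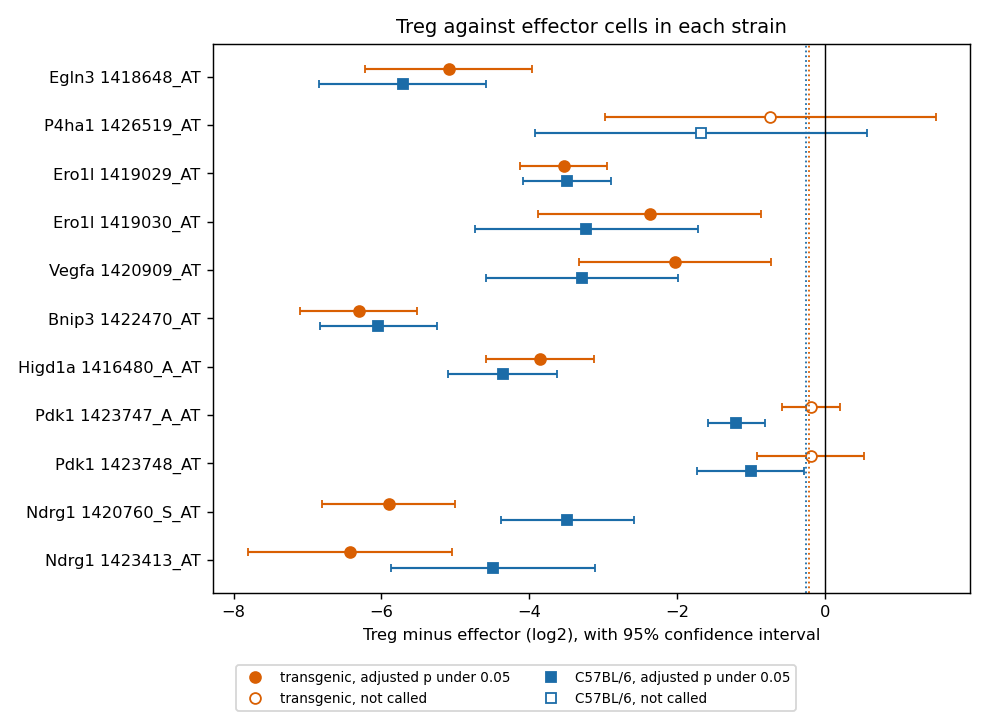
Difference of Treg minus effector (log2) with its 95% confidence interval for each probe set, in transgenic and C57BL/6 mice, filled where called, with the median over all tested probe sets as dotted lines. Egln3, Bnip3, Higd1a, Ero1l and Ndrg1 lie well to the left of the dotted lines in both strains, and Pdk1 lies close to them in transgenic mice.

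Differences between the strains were far smaller. The receptor defect, the transgene and, in Treg samples, age and number of pooled mice all differ between the strains and cannot be told apart here. In Treg cells 1 of the 11 probe sets, of Pdk1, was higher in transgenic mice, and none was lower, while 1.19% of all tested probe sets were called (0.389% higher and 0.805% lower). The groups did not overlap in 6 of the 11, against 14.8% of all tested probe sets. The median strain change, transgenic minus C57BL/6, was -0.13 for the 11 and 0.028 over all tested probe sets.

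Pdk1 was higher in transgenic than in C57BL/6 Treg cells on both of its probe sets, with no overlap of the groups. On 1423747_A_AT the means were 11.80 ± 0.11 in transgenic and 10.74 ± 0.12 in C57BL/6 Treg cells (SD, n = 3), a difference of 1.06 with an SE of 0.18, or 2.08-fold (limma adjusted p = 0.0138). On 1423748_AT they were 10.71 ± 0.20 in transgenic and 9.47 ± 0.53 in C57BL/6 Treg cells, a difference of 1.24 with an SE of 0.33 (limma adjusted p = 0.138, not called). With array weights 1423748_AT was called (limma adjusted p = 0.0056), in a setting that called 6.74% of all tested probe sets. With a block for replicate number in Treg arrays alone the call on 1423747_A_AT was kept (limma adjusted p = 0.0247). That block was chosen after seeing the data, and its pairing of same-numbered arrays is taken from these data. The call was lost with the planned block in both populations (limma adjusted p = 0.0740). Without the 33-week pool, transgenic Treg array 1, it was kept (limma adjusted p = 0.0452). It was also lost without C57BL/6 Treg array 2 (limma adjusted p = 0.0750), without transgenic Treg array 2 (0.0616), without transgenic Treg array 3 (0.0527), and with only the 4 Treg arrays of consecutive provider codes (0.0597). The difference itself ranged from 0.998 to 1.11 with 1 array left out.

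Ndrg1 went the other way without reaching the threshold. The 3 transgenic Treg arrays lay below the 3 C57BL/6 Treg arrays on both probe sets, at 4.97 to 5.86 against 6.94 to 7.13 on 1420760_S_AT and at 2.64 to 4.00 against 4.01 to 5.41 on 1423413_AT. The differences were -1.63 (95% interval -2.53 to -0.73, limma adjusted p = 0.108) and -1.24 (-2.63 to 0.14, limma adjusted p = 0.622). With values below log2 5 set to 5 they were -1.62 and -0.14, so the size on 1423413_AT rests on values below that level. The first was called with quantile normalization (limma adjusted p = 0.0379), with array weights (0.0342) and without C57BL/6 effector array 3 (0.0378). Ndrg1 lies on chromosome 15, at 66929318 to 66969641 in GRCm38.p6, 11.5 Mb from Il2rb, the gene of the receptor beta chain, and whether this position bears on the difference was not tested.

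For Egln3 the strain difference in Treg cells was -1.09, between values that all lay below log2 5, as did those of Vegfa. Ero1l differed by -0.25 on 1419029_AT, with no overlap, and by 0.42 on 1419030_AT. Bnip3 differed by -0.21 (95% interval -1.0 to 0.59), Vegfa by -0.13, Higd1a by 0.39 and P4ha1 by 0.67 (-1.57 to 2.91). None of these was called, and the interval of P4ha1 holds changes of 2-fold in either direction.

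**Figure D4:**
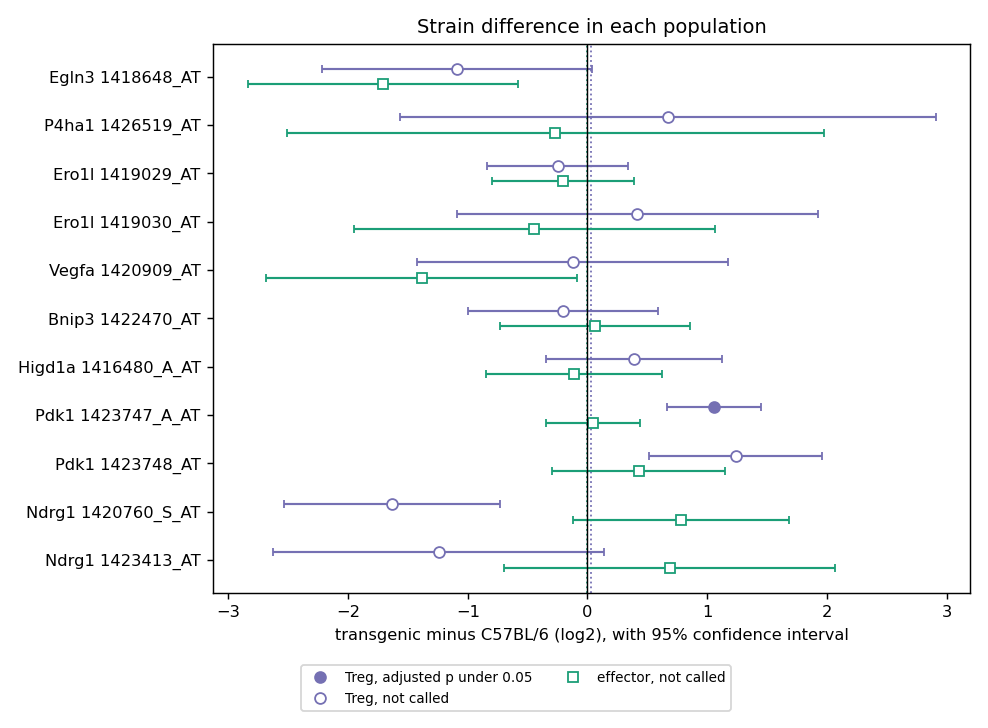
Strain difference, transgenic minus C57BL/6 (log2), with its 95% confidence interval for each probe set in Treg and effector cells, filled where called. Pdk1 1423747_A_AT in Treg cells is the only filled point, and the Ndrg1 points fall left of 0 in Treg and right of 0 in effector cells.

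In effector cells no member was called between the strains (0 of 11 by limma), and 2.99% of all tested probe sets were. An unadjusted limma p under 0.05 was reached by 2 of the 11 and by 2824 of all 18271 tested probe sets. With array weights 3 of the 11 were called, all higher in transgenic cells, and 16.6% of all tested probe sets were called in either direction. The groups did not overlap in 1 of the 11, Vegfa, against 22.8% of all tested probe sets. The median strain change of the 11 was -0.11, against -0.0053 over all tested probe sets. Without transgenic effector array 3 it was 0.43, and 8 of the 11 lay above 0 instead of 5. The direction of this shift was fixed, because all 11 were lowest on that array.

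Egln3 had the largest strain difference in effector cells, with a mean of 8.46 ± 1.03 in transgenic and 10.17 ± 0.58 in C57BL/6 effector cells (SD, n = 3). The difference was -1.71 (95% interval -2.84 to -0.58, limma adjusted p = 0.120), with 1 transgenic value above the lowest C57BL/6 value. It was -1.30 without transgenic effector array 3, and -2.29 and called without transgenic effector array 2 (limma adjusted p = 0.0299). The Vegfa difference of -1.39 (limma adjusted p = 0.288) was -0.43 without transgenic effector array 3.

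Ndrg1 stood higher in transgenic effector cells by 0.78 on 1420760_S_AT and 0.69 on 1423413_AT, with overlapping groups (limma adjusted p = 0.406 and 0.710). Without transgenic effector array 3 these differences were 1.02 and 1.16, still not called. Bnip3 differed by 0.062 (95% interval -0.73 to 0.86), Higd1a by -0.11 (-0.85 to 0.62) and Pdk1 by 0.047 on 1423747_A_AT (-0.34 to 0.44) and 0.43 on 1423748_AT (-0.30 to 1.15). Without transgenic effector array 3 these differences were 0.49 for Bnip3, -0.039 for Higd1a, and 0.20 and 0.79 for Pdk1, none of them called. Ero1l differed by -0.20 and -0.44 on its probe sets and P4ha1 by -0.27, and all 3 values turned positive without transgenic effector array 3, at 0.099, 0.43 and 0.66.

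Whether the strain change differed between the populations was tested as the strain change in Treg cells minus that in effector cells. No member passed (0 of 11 by limma, with 2 at an unadjusted p under 0.05), and 2.26% of all tested probe sets did. The lowest adjusted p-values belonged to Ndrg1 1420760_S_AT, with a difference of -2.41 (SE 0.58, limma adjusted p = 0.0596), and Pdk1 1423747_A_AT, with 1.01 (SE 0.25, limma adjusted p = 0.0684). Ndrg1 was past the threshold with arrays centred on their median (limma adjusted p = 0.0488), with quantile normalization (0.0338), with array weights (0.00364) and without C57BL/6 effector array 3 (0.0105). The second Ndrg1 probe set, 1423413_AT, had a difference of -1.93, or -0.82 with values below log2 5 set to 5, and was past the threshold with array weights (limma adjusted p = 0.0351). Pdk1 was past it with array weights (limma adjusted p = 0.0216) and without transgenic effector array 2 (0.0472). Array weights put 13.8% of all tested probe sets past the threshold. Without transgenic effector array 3 the differences were -2.65 for Ndrg1 and 0.86 for Pdk1 (limma adjusted p = 0.0546 and 0.107), and the median over the 11 was 0.0092, against 0.62 with that array.

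The members varied together among effector arrays of the same group. Their median within-group SD was 0.78 in transgenic and 0.51 in C57BL/6 effector cells, against 0.25 and 0.16 over all tested probe sets, and 0.28 in transgenic and 0.23 in C57BL/6 Treg cells, against 0.21 and 0.30. Transgenic effector array 2 was the highest of its group for 9 of the 11, as for 20.7% of all tested probe sets. C57BL/6 effector array 3 was the highest of its group for 9 of the 11, as for 38.9% of all tested probe sets, and array 1 was the lowest for 9, as for 29.8%. In the 52 pairs of probe sets from different genes, within-group deviations over the 12 arrays, Treg and effector pooled, had a median correlation of 0.597. Of these pairs 48 lay above 0. The rest all held Higd1a, with P4ha1 (-0.62), Ero1l 1419029_AT (-0.093), Ero1l 1419030_AT (-0.39) and Ndrg1 1423413_AT (-0.39). The same quantity was not computed over all tested probe sets. Neither these correlations nor the transgenic effector SD of 0.78 were computed without transgenic effector array 3, on which all 11 were lowest. How far they rest on that array was not tested. These correlations describe arrays that the probe sets share, and each effector array held 1 mouse, so mouse, culture and array cannot be told apart.

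**Figure D5:**
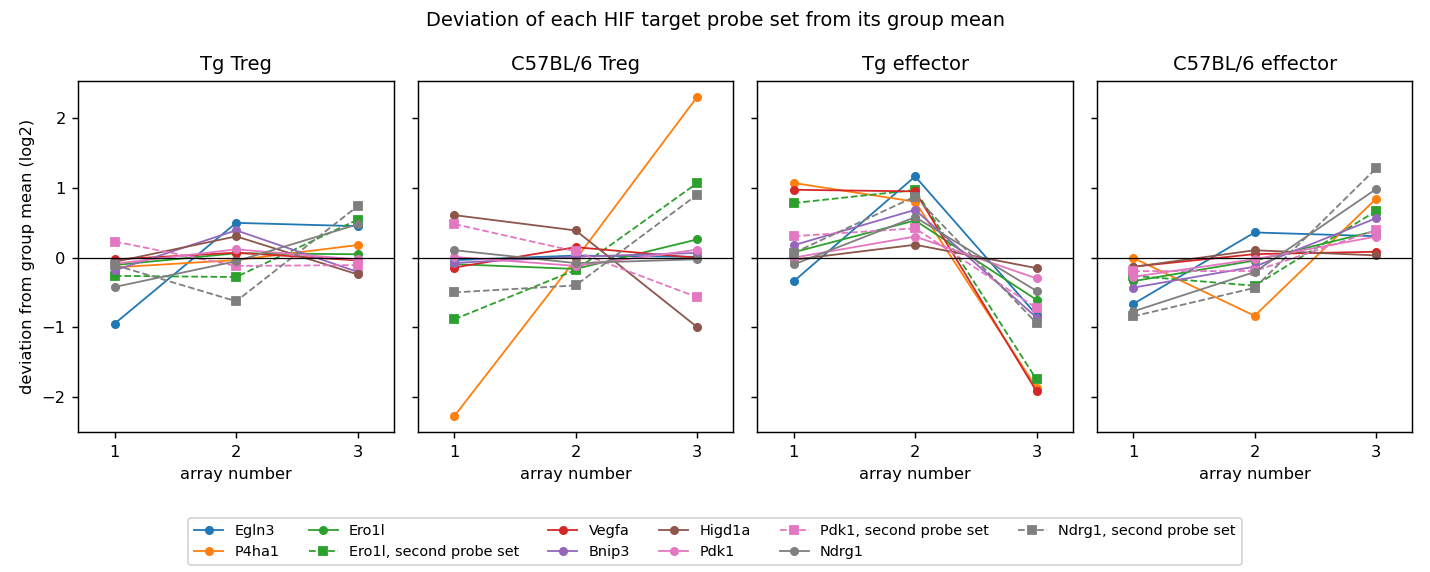
Deviation of each probe set from its group mean (log2) on arrays 1, 2 and 3 of each group, with lines joining the values of 1 probe set and no order among arrays. All 11 probe sets are lowest on transgenic effector array 3, most are highest on C57BL/6 effector array 3, and P4ha1 spreads widest among C57BL/6 Treg arrays.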

How the data were processed

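The authors made the deposited log2 values with GCRMA, which corrects background by probe sequence, normalizes arrays and sums probes, per the submitters' processing notes. The sources used here give neither its version nor whether the 12 arrays were normalized together. Per the labels' protocols, 1 round of in vitro transcription amplified the RNA. Nothing was transformed further.

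The 64 control probe sets were left out. In 18271 probe sets, 4 group means were estimated by limma 3.58.1 (R 4.3.3, eBayes with trend). The fitting code was tested on simulated data, from which no value is given. P-values were adjusted over all of them. The number of arrays limits the precision. Standard errors come from this model and SDs from the 3 arrays of a group.

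Replicate numbers follow the titles. For effector cells, the descriptions give another number for C57BL/6 array 3 and transgenic array 2. Deviations of same-numbered arrays correlated at 0.583, 0.102 and 0.511 in Treg cells, taken as paired from the data, and at 0.211, -0.338 and -0.342 in effector cells, not paired. Transgenic Treg array 2 correlated at 0.114 with C57BL/6 Treg array 3, above its same-numbered array, so the Treg pairing is uncertain.

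The members and lists were chosen with earlier results of these data known. All 11 members are named by rule. Lists of HIF regulators, other HIF targets, paralogs and cell type markers, and the search for probe sets of like pattern, needed gene names for other probe sets and were not used here. Alternatives were other normalizations, filters, variance models, call rules, array weights, blocks and leaving out each array. Figures used matplotlib 3.10.9.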

Additional observations from a re-analysis of the deposited data

How the results depend on the processing

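The 19 called differences of members kept their direction in all 438 values computed under the alternatives, and 10 of these values were not called. Many of these values could not change direction. Other filters, variance models, a 2-fold limit added to the adjusted p, the replicate block and leaving out an array of another group leave the difference itself unchanged. Ratios of unlogged means do change it. For Egln3 and Vegfa the filter had also fixed the direction. In Treg cells the count of members called between strains was 2 with quantile normalization, 3 with array weights and 4 with a 2-fold ratio of unlogged means and no test, 0 with the replicate block in both populations and 0 with only the Treg arrays of consecutive provider codes (an alternative chosen after seeing the data, as were the replicate block in Treg cells only, with a count of 1, and setting values below log2 5 to 5). It was 0 to 2 with 1 array left out. The shares of all tested probe sets called in Treg cells were 1.43% with quantile normalization, 6.74% with array weights and 2.66% with the ratio. They were 1.01% with the replicate block in both populations, 1.04% with consecutive provider codes only, and 0.739% to 1.4% with 1 array left out. In effector cells the count was 3 with array weights, 1 with the 2-fold ratio, and 0 to 1 with 1 array left out. Of all tested probe sets 16.6%, 4.97% and 1.46% to 3.44% were called in these settings. For the difference of strain changes the count was 1 with centred arrays, 1 with quantile normalization, 3 with array weights, 3 with the 2-fold ratio, and 0 to 1 with 1 array left out. Of all tested probe sets 2.35%, 2.27%, 13.8%, 9.61% and 1.17% to 2.37% were called in these settings. The replicate block changed no other call. Over all tested probe sets the counts called ranged from 74 to 1232 in Treg cells (218 as reported), from 223 to 3033 in effector cells (547), from 214 to 2529 for the difference (413), from 9937 to 31870 between the C57BL/6 populations (13475) and from 9288 to 31397 between the transgenic ones (12789).

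Reversals all concerned values not called as reported. For Treg minus effector in transgenic mice, both Pdk1 probe sets were 0.11 with centred arrays, and 0.48 and 0.45 with quantile normalization. With array weights the effector strain changes were 0.50 for P4ha1, 0.27 and 0.44 for Ero1l and 0.034 for Higd1a, and the Egln3 difference of strain changes was -0.034. With consecutive provider codes only, the difference for Ero1l 1419029_AT was 0.059. With the ratio of unlogged means, P4ha1 was -0.34 in Treg cells, 0.026 in effector cells and -0.37 for the difference. With 1 array left out, Treg strain changes ranged from -0.46 to 1.82 for P4ha1, -0.026 to 0.95 for Ero1l 1419030_AT and -0.10 to 0.69 for Higd1a. Effector strain changes ranged from -0.80 to 0.66 for P4ha1, -0.47 to 0.099 and -0.93 to 0.43 for Ero1l, -0.28 to 0.49 for Bnip3 and -0.10 to 0.20 for Pdk1 1423747_A_AT. Differences ranged from -0.19 to 2.09 for P4ha1, -0.35 to 0.22 and -0.012 to 1.39 for Ero1l and -0.70 to 0.074 for Bnip3. Treg minus effector in transgenic mice ranged from -0.55 to 0.017 for Pdk1 1423748_AT. Centring moved the median of all tested probe sets between the populations to 0.09 in transgenic and 0.06 in C57BL/6 mice, and the calls to 6614 higher and 5796 lower in transgenic mice (5488 and 7301 as deposited) and to 6940 and 6230 in C57BL/6 mice (5794 and 7681). The causes were not tested.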
